A study of Mus musculus with 16 samples.

Results

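The RNA of 10 enzymes that make, use or break down ceramide was followed in mouse neural crest stem cells before and after priming towards glia, neurons or mesenchyme. They were Sptlc1 and Sptlc2 (serine palmitoyltransferase), the ceramide synthases Cers2, Cers4, Cers5 and Cers6, the desaturase Degs1, the sphingomyelin synthase Sgms1, the glucosylceramide synthase Ugcg and the acid ceramidase Asah1. The enzymes were chosen by pathway with the measured fall of Cers4 between unprimed and neuron-primed cells already known. Members were every probe set whose platform annotation names 1 of these genes and no other, which gave 25 of the 45101 probe sets on the array and 10 of 18194 named genes. The ceramide synthase Cers4, whose fall was known beforehand, had the largest difference between groups, so that it stands out is no finding. It was lower in neuron-primed cells than in unprimed and mesenchyme-primed cells, with an intermediate and more variable level in glia-primed cells. The large fall rests on 1 of its probe sets. No other member was called in any of the 6 comparisons between groups, where at most 0.286% of all probe sets were. With calls so rare, this says little about the other enzymes.

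The study used 16 Affymetrix arrays of primary mouse neural crest cells, in 4 groups of 4. The unprimed group held crest stem cells kept in their own medium, and the Glia, Autonomic and Mesenchymal groups held such cells after exposure to growth factors that instruct these fates. Which growth factors were used and for how long, the strain, the embryonic age and the number of embryos or cultures behind an array are not stated in the labels used here. All p-values therefore measure the spread between these arrays, which may in part be technical. The list was drawn up with results of these data known, among them the low level of Cers4 in neuron-primed cells. Cers4 is therefore described without a test against unprimed cells. Its tests between neuron-primed and other primed cells are given as a description and support nothing.

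Values are the authors' RMA intensities, here on the log2 scale, where a step of 1 is a doubling. Array medians lay between 3.05 and 3.15, and no pair of arrays held identical values. Whether a probe set exceeded background was not measured. For each gene the probe set of the highest mean over all arrays is called its leading probe set. All 10 leading probe sets, and 18 of the 25 in all, lay above the median probe set of the array, whose mean was 3.14. Of 10 crest markers (Sox10, Foxd3, Ngfr and others) all 10 had a group mean above the array median in each group. Their mean was lowest on a neuron-primed array, at 5.21, against 6.44 or more on the arrays of the other groups. Ngfr, the low-affinity neurotrophin receptor, averaged 9.07 in unprimed cells, 7.20 with glial, 6.32 with neuronal and 9.39 with mesenchymal priming. Its difference of -2.75 in neuron-primed cells passed the test (limma adjusted p = 0.00801), and that of -1.87 in glia-primed cells did not (0.0668). No other crest marker passed against unprimed cells, and they did not share a direction. Snai2 differed from unprimed cells by 1.62 in glia-primed and 1.10 in neuron-primed cells, and Sox9 by -1.14 and -1.04. Of 9 autonomic neuron markers 6 lay above the array median in every group. Of 8 Schwann lineage markers 5 did in unprimed cells, 6 with glial, 3 with neuronal and 4 with mesenchymal priming. The mean of these 8 genes was not higher with glial priming, with a median array of 4.47, 4.25, 3.86 and 4.06 in the same order. None of the 8 passed against unprimed cells, and they did not share a direction. In glia-primed cells Fabp7 differed by -1.45 and Cdh19 by 0.61. Endothelial markers were at the bottom of the scale, at 1.81 to 2.60 as a mean of 6 genes over all arrays.

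Ceramide is built on the endoplasmic reticulum. Serine palmitoyltransferase condenses serine with palmitoyl-CoA, the product is reduced to sphinganine, a ceramide synthase adds a fatty acyl chain, and Degs1 introduces the double bond that turns dihydroceramide into ceramide. The ceramide synthases differ in the acyl chain they prefer, very long chains for Cers2, long to very long for Cers4 and chiefly palmitoyl chains for Cers5 and Cers6. Ceramide then becomes sphingomyelin through Sgms1 or glucosylceramide, the base of gangliosides, through Ugcg, and Asah1 breaks it down in lysosomes. Sphingomyelin and galactosylceramide are major lipids of myelin, and gangliosides are abundant on neurons.

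**Figure D1:**
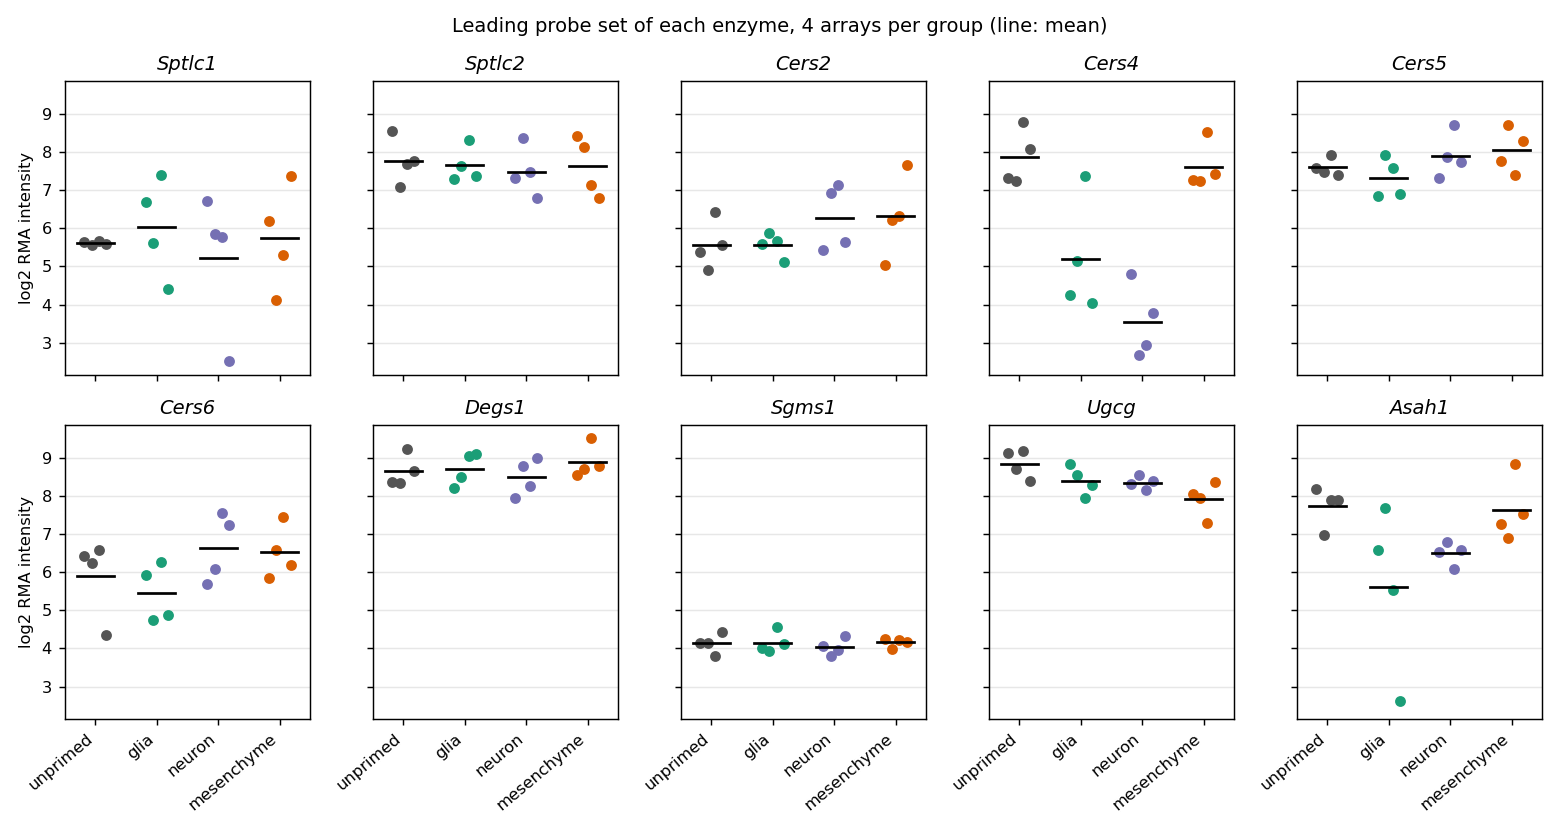
Log2 RMA intensity (vertical axis) of the leading probe set of each of the 10 enzymes in the 4 groups, with a point per array and a line at the group mean. In the Cers4 panel the neuron-primed arrays (2.66 to 4.80) lie wholly below the unprimed ones (7.25 to 8.79). Those of Asah1 do too, by less (6.09 to 6.78 against 6.97 to 8.19). The low Asah1 point at 2.63 is glia-primed replicate 4.

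Serine palmitoyltransferase, the entry step of the pathway, was measured by 7 probe sets of its 2 subunits. The leading probe set of Sptlc2, the catalytic subunit, averaged 7.78 ± 0.60 (SD, n = 4) in unprimed cells, 7.66 ± 0.46 with glial, 7.49 ± 0.65 with neuronal and 7.63 ± 0.78 with mesenchymal priming. Group means thus spanned 0.29, less than the spread within groups of 0.63. Against unprimed cells the log2 differences were -0.12, -0.29 and -0.15, and the interval in neuron-primed cells ran from -1.20 to 0.62, so it includes a 2-fold lower level.

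Sptlc1, the partner subunit, was uneven between arrays. Its leading probe set lay at 5.64, 5.55, 5.68 and 5.60 in unprimed cells. In glia-primed cells it lay at 6.69, 5.62, 7.40 and 4.40, in neuron-primed cells at 6.73, 5.84, 5.77 and 2.51, and in mesenchyme-primed cells at 6.19, 4.11, 5.30 and 7.37. The unprimed arrays agreed closely (SD 0.06), whereas the primed groups had SDs of 1.31 to 1.85 and means on either side of 5.62. A second Sptlc1 probe set showed the reverse, with an SD of 1.28 in unprimed and 0.34 to 0.51 in primed cells, so its probe sets did not share the spread. The remaining Sptlc1 probe sets were dim, with means of 2.53 and 1.44. Of the other Sptlc2 probe sets, 1 averaged 3.96 with differences from unprimed cells of 0.10 to 0.17, and 1435937_at averaged 3.93 ± 1.35 in unprimed and 2.65 ± 0.70 in glia-primed cells, a difference of -1.28 that did not pass (limma adjusted p = 0.559). Neither subunit passed in any comparison (smallest limma adjusted p = 0.913 over their leading probe sets).

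Among the ceramide synthases Cers4, chosen with its low level known, had the largest difference. Cers4 lay at 7.33, 7.25, 8.79 and 8.07 in unprimed cells (mean 7.86 ± 0.72, n = 4). In neuron-primed cells it lay at 4.80, 2.66, 2.92 and 3.77 (mean 3.54 ± 0.97, n = 4). In glia-primed cells it lay at 4.26, 5.14, 7.38 and 4.04 (mean 5.20 ± 1.53, n = 4), and in mesenchyme-primed cells at 7.26, 7.24, 8.54 and 7.43 (mean 7.62 ± 0.62, n = 4). All 4 neuron-primed arrays were below all unprimed and all mesenchyme-primed arrays. Among glia-primed arrays 3 of 4 were below them too, while replicate 3 reached the level of unprimed and mesenchyme-primed cells.

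The order of Cers4 levels was unprimed, mesenchyme-primed, glia-primed and neuron-primed. The means of unprimed and mesenchyme-primed cells, neighbours in that order, lay -0.24 apart on the log2 scale, less than the SD of either group. The difference from unprimed cells was -4.32 in neuron-primed cells, a 19.97-fold lower intensity, and -2.66, or 6.31-fold, in glia-primed cells. Without glia-primed replicate 3 the glia-primed difference was -3.38. Neuron-primed replicates 2 and 3 lay below the array medians, so the size of the fold over so dim a level is rough, and with 16 added to each intensity before the log2 the neuron-primed difference was -3.12. In bulk cultures fewer cells that express a gene and less RNA per cell cannot be told apart.

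Between primed groups, Cers4 was lower in neuron-primed than in mesenchyme-primed cells by 4.08 on the log2 scale, or 16.9-fold, and by 2.89 on that scale with 16 added to each intensity. In the fit over all 45037 probe sets it was the only 1 of the 25 member probe sets called there, where 0.206% of all were. The neuron-primed arrays are those whose low level was known when the genes were chosen, so this call is a description and supports nothing. It was lost without any 1 of neuron-primed replicates 2, 3 and 4 or mesenchyme-primed replicates 1 to 4 (adjusted p 0.0579 to 0.0869), and when these 2 groups were fitted alone (0.0709). Glia-primed cells lay below mesenchyme-primed cells by 2.42 on the log2 scale (SE 0.67), which did not pass (limma adjusted p = 0.336, and 0.0604 without glia-primed replicate 3). Glia-primed exceeded neuron-primed cells by 1.66, and the arrays of these groups overlapped.

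Array quality, Xist and some cell type markers also differed between groups. The 3' to 5' log2 ratio of the Gapdh control was 2.20 to 2.58 in unprimed arrays, 2.44 to 3.33 with glial, 2.53 to 3.10 with neuronal and 2.66 to 3.13 with mesenchymal priming. With the ratio in the model the Cers4 differences from unprimed cells were -3.87 with glial, -5.34 with neuronal and -1.47 with mesenchymal priming. Xist, the RNA of the inactive X chromosome, ran from 2.61 to 5.34 in glia-primed and 3.15 to 10.6 in neuron-primed arrays. It ran from 2.68 to 11.2 in mesenchyme-primed and 6.39 to 10.5 in unprimed arrays, so all glia-primed arrays lay below the unprimed ones. With Xist in the model the neuron-primed Cers4 difference was -4.37. Over the refits with other scalings, filters or models, Xist included, the glia-primed Cers4 difference ran from -3.87 to -2.13. With Xist, calls over all probe sets against unprimed cells went from 129 to 32 in glia-primed and from 124 to 90 in neuron-primed cells.

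Smooth muscle and mesenchyme markers (10 of 10 measured) averaged 4.58 to 6.04 in unprimed arrays, 6.22 to 6.73 with glial, 5.37 to 7.33 with neuronal and 5.53 to 7.20 with mesenchymal priming. Neural tube markers (8 of 8 measured) averaged 3.93 to 6.97, 2.53 to 4.02, 2.84 to 6.01 and 3.16 to 5.51 in these groups. The part of these markers, or of Ngfr and the other crest markers, in the Cers4 result was not tested. Neuron-primed replicate 1, which had the lowest Xist level of its group, had the highest Cers4 level of it at 4.80, and without that array the difference was -4.74.

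**Figure D2:**
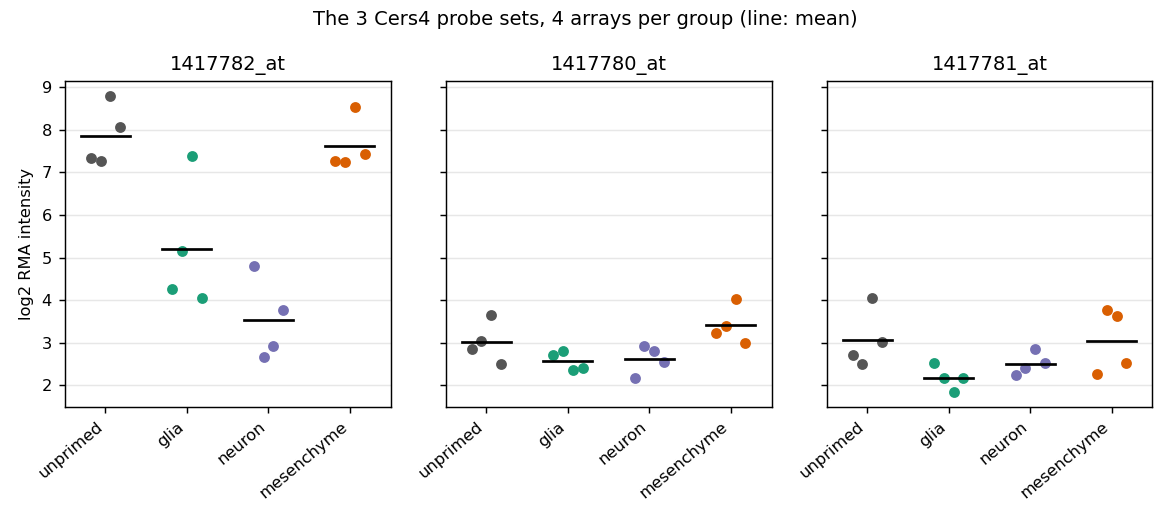
Log2 RMA intensity (vertical axis) of the 3 Cers4 probe sets in the 4 groups, with a point per array and a line at the group mean. The leading probe set 1417782_at falls from 7.86 to 3.54 between unprimed and neuron-primed means, while the others stay between 1.85 and 4.05 on all arrays.

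Cers4 has 3 probe sets, which the platform annotation assigns to the same database sequence. The leading one, 1417782_at, gave the values above. The other ones were dim, with means of 2.90 (1417780_at) and 2.70 (1417781_at), below the median probe set. Their differences from unprimed cells were -0.44 and -0.89 in glia-primed, -0.40 and -0.55 in neuron-primed, and 0.40 and -0.02 in mesenchyme-primed cells. Both were thus lower in glia- and neuron-primed than in unprimed cells by less than 1 on the log2 scale. The large fall therefore rests on 1 probe set.

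No other ceramide synthase had its lowest group mean in neuron-primed cells at its leading probe set. The leading probe sets of Sptlc1, Sptlc2, Degs1 and Sgms1 did, by differences that did not pass. Cers2 had group means of 5.56 ± 0.64 in unprimed cells, 5.57 ± 0.32 with glial, 6.28 ± 0.87 with neuronal and 6.31 ± 1.07 with mesenchymal priming (SD, n = 4). The leading Cers5 probe set had means of 7.60 ± 0.23, 7.31 ± 0.53, 7.91 ± 0.59 and 8.04 ± 0.58 in the same order. Its dim second one had a mean of 1.84 over all arrays, and was lowest in neuron-primed cells, at 1.61 against 2.10 in unprimed cells. Cers6 had means of 5.89 ± 1.05, 5.46 ± 0.75, 6.64 ± 0.89 and 6.52 ± 0.69, with unprimed replicate 4 at 4.34 against 6.24 to 6.57 for the rest of its group. In neuron-primed cells, where Cers4 was low, the leading probe sets of Cers2, Cers5 and Cers6 differed from unprimed cells by 0.72, 0.31 and 0.75. Their intervals include 0, with limma adjusted p of 0.764, 0.871 and 0.779.

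On the same array the leading probe set of Cers4 can be set against the mean of the leading probe sets of Cers2, Cers5 and Cers6, and the change of that difference between groups read. It was 1.51 ± 0.67 in unprimed, 0.66 ± 0.72 in mesenchyme-primed, -0.91 ± 1.23 in glia-primed and -3.40 ± 1.56 in neuron-primed cells (SD, n = 4). The neuron-primed arrays, at -4.87 to -1.34, lay below all unprimed (0.86 to 2.30) and all mesenchyme-primed arrays (0.05 to 1.49). Since the Cers4 level enters it, this is a description of unequal change within the family and carries no test.

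The promoters of the ceramide synthases are shown because Cers4, whose low level was known beforehand, had the one large difference of this family. Cers2, Cers5 and Cers6 did not pass in any comparison. RefSeq promoter sequences (GRCm38.p6) were found for 9 of the 10 members, with Asah1 the exception. The lines give the 250 bases before the annotated start of Cers4 (chr8:4493155-4493404, plus strand), Cers2 (chr3:95314940-95315189, plus strand, the first of 2 annotated starts), Cers5 (chr15:99772516-99772765, minus strand) and Cers6 (chr2:68861191-68861440, plus strand). Capitals mark matches on either strand to 4 motifs. The GC box was searched as GGGCGG. The CCAAT box was searched by its own letters. The E box was searched as CACGTG. The sterol element was searched as TCACNCCAC.
Cers4: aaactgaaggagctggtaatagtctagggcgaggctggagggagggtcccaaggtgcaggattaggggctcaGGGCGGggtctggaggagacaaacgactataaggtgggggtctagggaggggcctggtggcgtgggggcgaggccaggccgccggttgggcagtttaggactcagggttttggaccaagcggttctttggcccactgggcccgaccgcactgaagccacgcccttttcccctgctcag
Cers2: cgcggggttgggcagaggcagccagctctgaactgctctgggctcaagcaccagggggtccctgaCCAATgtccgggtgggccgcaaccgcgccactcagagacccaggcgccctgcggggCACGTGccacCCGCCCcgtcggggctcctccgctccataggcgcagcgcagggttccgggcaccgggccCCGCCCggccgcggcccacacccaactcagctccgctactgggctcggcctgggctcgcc
Cers5: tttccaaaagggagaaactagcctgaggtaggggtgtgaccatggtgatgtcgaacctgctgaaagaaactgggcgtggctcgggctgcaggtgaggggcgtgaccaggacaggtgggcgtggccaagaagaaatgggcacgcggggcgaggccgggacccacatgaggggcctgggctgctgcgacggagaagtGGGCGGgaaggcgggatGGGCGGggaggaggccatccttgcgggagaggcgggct
Cers6: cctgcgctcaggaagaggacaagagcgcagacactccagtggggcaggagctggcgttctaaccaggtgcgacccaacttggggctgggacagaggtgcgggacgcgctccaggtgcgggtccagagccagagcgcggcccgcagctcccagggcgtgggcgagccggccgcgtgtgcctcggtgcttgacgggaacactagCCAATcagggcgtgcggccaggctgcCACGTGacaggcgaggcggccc
Cers4 held 1 GC box, 178 to 173 bases before the start, and no match to the other motifs. Cers5 held 2 GC boxes. Cers2 held 2 GC boxes, a CCAAT box and an E box, and Cers6 a CCAAT box and an E box 22 to 17 bases before the start. Of 32851 such windows in the table, 32.7% held a GC box, 33.8% a CCAAT box, 6.02% the E box and 1.05% the sterol element. The windows of Sptlc1, Sptlc2, Degs1, Sgms1 and Ugcg also held matches and are not printed. A match only describes letters in the window, and the arrays did not measure binding. A relation of the matches to the Cers4 level was not tested.

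**Figure D3:**
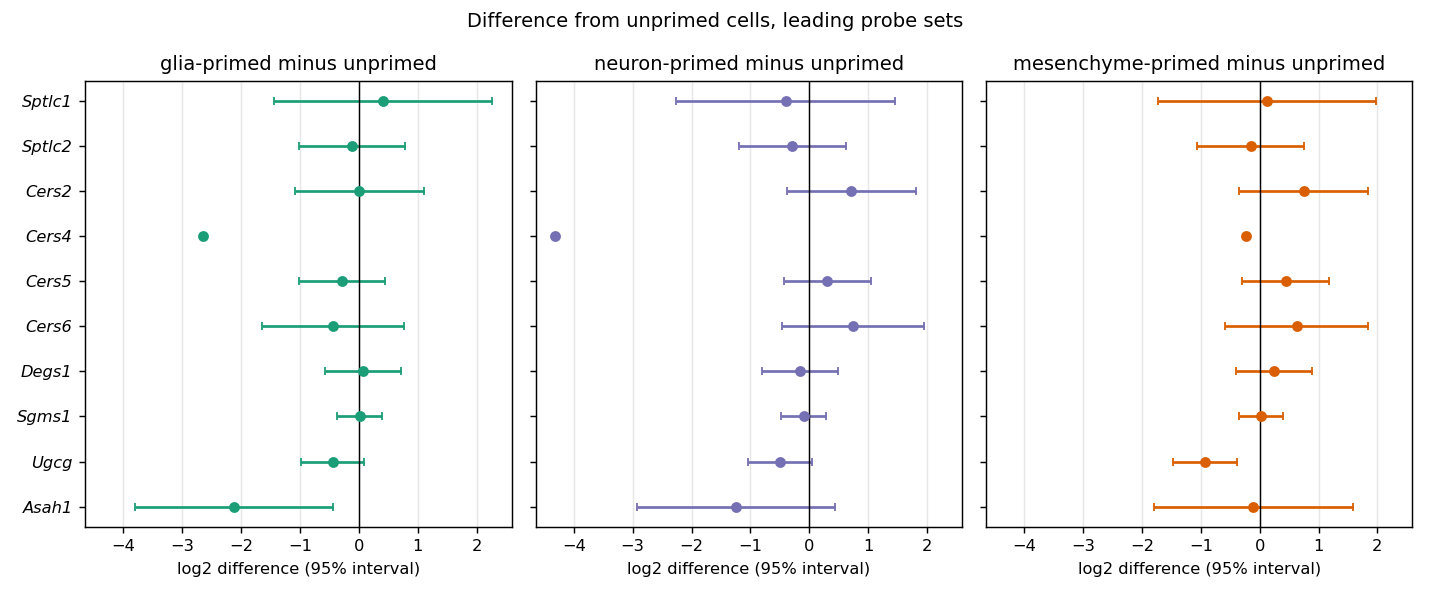
Log2 difference from unprimed cells (horizontal axis) of the leading probe set of each enzyme in glia-, neuron- and mesenchyme-primed cells, with 95% intervals from the model over all arrays except for Cers4, which is shown without one. Cers4 is the farthest from 0 in glia-primed (-2.66) and neuron-primed cells (-4.32), and Ugcg in mesenchyme-primed cells (-0.93).

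Degs1, which makes the double bond of ceramide, varied little at its leading probe set. Its leading probe set averaged 8.65 ± 0.41 in unprimed cells, 8.72 ± 0.44 with glial, 8.50 ± 0.47 with neuronal and 8.90 ± 0.42 with mesenchymal priming (SD, n = 4). The intervals of its differences from unprimed cells reached at most 0.89 upwards and -0.80 downwards, so all lie within a 2-fold change in either direction. A dimmer Degs1 probe set averaged 4.99 ± 0.85 in neuron-primed and 5.84 ± 0.56 in unprimed cells, a difference of -0.85 that did not pass (limma adjusted p = 0.640).

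Sgms1, which turns ceramide into sphingomyelin, had the smallest spread of the leading probe sets, at 3.81 to 4.55 over all 16 arrays. Group means were 4.14, 4.15, 4.04 and 4.16 in unprimed, glia-, neuron- and mesenchyme-primed cells, and intervals against unprimed cells lay within -0.48 and 0.40. The level is near the array median, at a mean of 4.12. Of the other 3 Sgms1 probe sets, 1426575_at averaged 4.71 ± 1.47 in neuron-primed and 3.74 ± 0.75 in unprimed cells, a difference of 0.97 that did not pass (adjusted p = 0.778). The remaining ones had means of 3.42 and 2.64 over all arrays and did not pass in any comparison.

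Ugcg, the first enzyme of glycosphingolipid synthesis, lay at 9.13, 8.72, 9.18 and 8.39 in unprimed cells. It lay at 8.84, 8.54, 7.96 and 8.28 in glia-primed, at 8.33, 8.54, 8.16 and 8.39 in neuron-primed, and at 8.05, 7.96, 7.30 and 8.38 in mesenchyme-primed cells. Mesenchyme-primed arrays were all below the unprimed ones, though the nearest arrays of the groups, at 8.38 and 8.39, nearly met. The difference was -0.93 (SE 0.25, interval -1.47 to -0.39) and did not pass over all probe sets (adjusted p = 0.413). A second Ugcg probe set, of mean 7.14, gave -0.32 in that comparison, another, of mean 5.41, gave -0.20, and the dimmest, of mean 1.99, gave -0.19.

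The Ugcg probe set of mean 5.41, 1421269_at, was also the one with the highest member difference upwards in neuron-primed cells, 1.22 (adjusted p = 0.697). Its arrays there lay at 4.28, 6.14, 6.84 and 8.62, against 4.80 to 6.04 in unprimed cells. The leading Ugcg probe set went the other way by -0.50 in neuron-primed cells (adjusted p = 0.627), so the probe sets do not give the gene a common direction.

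Asah1, which cleaves ceramide to sphingosine in lysosomes, has 1 probe set on the array. It lay at 8.19, 6.97, 7.90 and 7.89 in unprimed cells. In glia-primed cells it lay at 6.58, 7.68, 5.54 and 2.63, in neuron-primed cells at 6.52, 6.78, 6.09 and 6.59, and in mesenchyme-primed cells at 7.27, 6.89, 8.84 and 7.53. The neuron-primed arrays were all below the unprimed ones, by 1.24 on average (SE 0.79, adjusted p = 0.724). The glia-primed difference of -2.13 (SE 0.79, adjusted p = 0.402) was -1.14 without replicate 4, whose value of 2.63 was below its array median.

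Calls were rare among the members and over all probe sets alike, so a count of 0 says little about these enzymes. Of the 22 probe sets of the 9 members other than Cers4, limma called 0 against unprimed cells in each primed group at an adjusted p under 0.05. Over all probe sets it called 0.286% with glial, 0.275% with neuronal and 0% with mesenchymal priming. These counts over the array moved when 1 array was left out, from 129 to between 45 (without unprimed replicate 4) and 200 (without neuron-primed replicate 1) with glial, from 124 to between 42 and 292 (without the same arrays) with neuronal, and from 0 to at most 3 with mesenchymal priming, with 8 and 9 of the 16 fits moving the first and the second by over 1.5 times. At an unadjusted p under 0.05 the counts among the 22 were 2 (Asah1 and Sptlc2 1435937_at), 0 and 1 (Ugcg), where 8.89%, 8.54% and 7.33% of all probe sets were below that limit. Arrays did not overlap with the unprimed ones for 0, 1 (Asah1) and 1 (Ugcg) of the 22, against 6.17%, 5.14% and 5.4% of all probe sets. Between primed groups, 0 of all 25 were called between glia- and neuron-primed cells (0.0111% of all probe sets) and 0 between glia- and mesenchyme-primed cells (0.129%), where 3 and 5 had an unadjusted p under 0.05 (6.21% and 6.5% of all probe sets). Between neuron- and mesenchyme-primed cells 4 of the 25 had one, against 7.75%. Arrays of these pairs of groups did not overlap for 0, 1 and 3 of the 25, where 2.96%, 4.06% and 4.06% of all probe sets did not. Without the Cers4 probe sets these counts were 0, 0 and 1 of the 22. Those with an unadjusted p under 0.05 were then 2, 2 and 2 of the 22 in the same order. Calls over all probe sets between primed groups moved from 5 to between 1 (without glia-primed replicate 1, among others) and 9 (without neuron-primed replicate 4) for glia against neurons, and from 58 to between 26 and 83 for glia against mesenchyme. For neurons against mesenchyme they moved from 93 to between 41 and 193, and in both the lowest count was without mesenchyme-primed replicate 1 and the highest without neuron-primed replicate 1. With arrays centred on housekeeping genes the split of all calls between higher and lower turned, from 41 and 88 to 117 and 43 in glia-primed, from 32 and 92 to 77 and 28 in neuron-primed against unprimed cells, from 12 and 46 to 45 and 26 between glia- and mesenchyme-primed cells, and from 30 and 63 to 93 and 22 between neuron- and mesenchyme-primed cells.

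The median difference of the 10 leading probe sets from unprimed cells was -0.20 with glial, -0.22 with neuronal and 0.07 with mesenchymal priming. Over the leading probe sets of all genes it was -0.01, 0.00 and -0.01. These 3 comparisons share the unprimed arrays, so their values are given side by side and not compared. The members that spread most within groups were Sptlc1 (SD 1.33), Asah1 (SD 1.20) and Cers4 (SD 1.02), and those that spread least were Sgms1 (SD 0.23), Ugcg (SD 0.36) and Degs1 (SD 0.44).

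**Figure D4:**
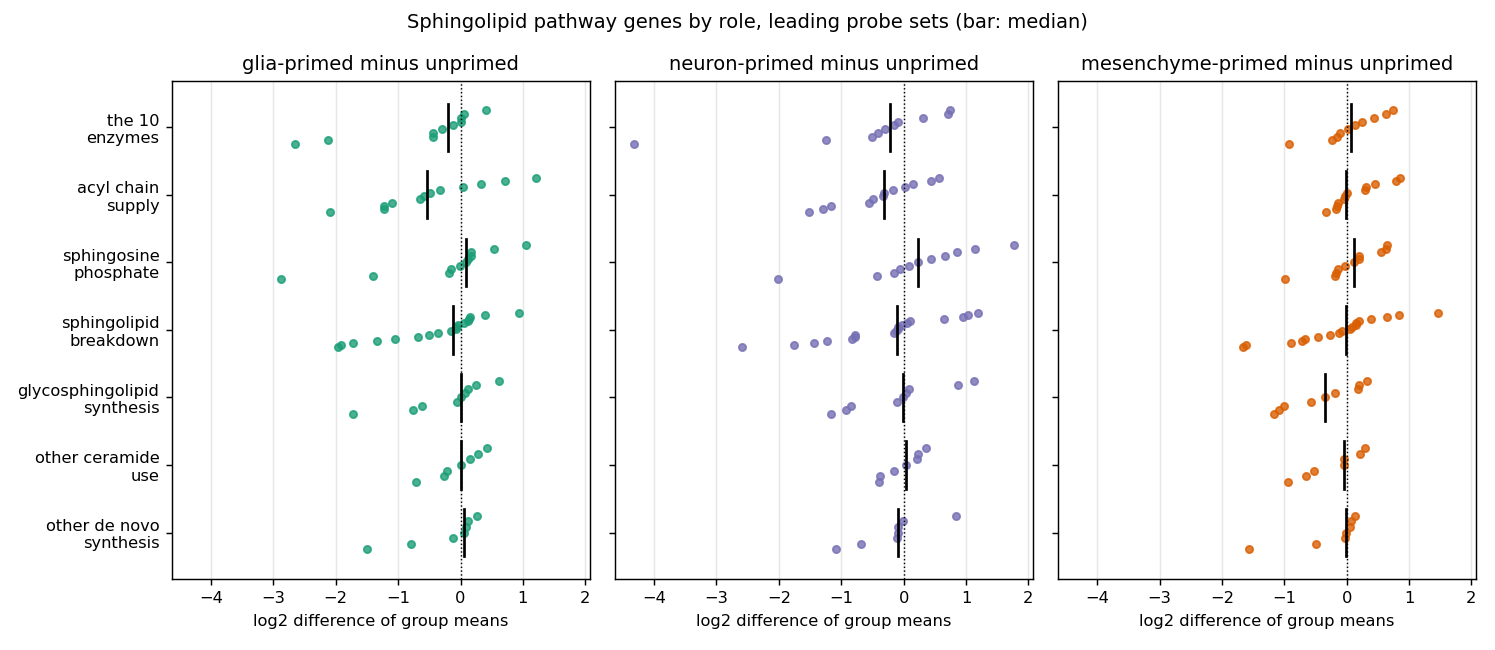
Log2 difference of group means from unprimed cells (horizontal axis) for the 64 other measured sphingolipid genes by role and for the 10 enzymes, with a point per gene (leading probe set) and a bar at the median of each role. None of the 64 was called, against 25 higher and 41 lower of 18193 genes with glial and 21 and 49 with neuronal priming. Cers4 at -4.32 is the leftmost point in neuron-primed cells.

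Around these 10 enzymes, 64 further genes of sphingolipid metabolism were measured. In none of the 6 comparisons was any of the 64 called at the leading probe set (smallest limma adjusted p = 0.0629). Few of the 18193 leading probe sets of all genes were called either. Against unprimed cells these were 25 higher and 41 lower with glial, 21 and 49 with neuronal, and 0 with mesenchymal priming. Between primed groups they were 1 and 1 (glia against neurons), 7 and 27 (glia against mesenchyme) and 20 and 35 (neurons against mesenchyme). The 0 of 64 is near these shares and is no result about the pathway. Of the 64, 9 with glial, 12 with neuronal and 3 with mesenchymal priming had an unadjusted p under 0.05 against unprimed cells. Over the leading probe sets of all genes 9.93%, 9.82% and 7.74% were below that limit. Among the other genes of de novo synthesis (7 measured, with the reductase Kdsr and the regulator Ormdl1) the median difference was 0.05, -0.09 and -0.02 in these groups. Genes of ceramide use and transport (7 measured, with Cert1, Cerk and Ugt8a) had medians of 0.01, 0.04 and -0.05.

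Glycosphingolipid and ganglioside genes (9 measured) had medians of 0.01, -0.01 and -0.35 in glia-, neuron- and mesenchyme-primed cells, and genes of sphingolipid breakdown (18 measured) of -0.12, -0.11 and -0.01. Sphingosine phosphate genes (11 measured) had medians of 0.09, 0.23 and 0.11. The elongation genes that supply acyl chains (12 measured) had medians of -0.54, -0.32 and -0.01, the lowest of these lists in glia- and neuron-primed cells. The following genes were named after their values were seen. Elovl6, which elongates palmitate, lay at 8.85 to 9.15 in unprimed and 5.45 to 7.61 in glia-primed arrays (difference -2.09, SE 0.43, adjusted p = 0.0629). Sgpp1, a sphingosine phosphate phosphatase, averaged 3.11 in glia-primed and 6.63 in mesenchyme-primed cells (difference -3.51, SE 0.69, adjusted p = 0.075). Gm2a, the activator protein of ganglioside breakdown, averaged 4.09 and 6.43 in these groups (difference -2.35, SE 0.47, adjusted p = 0.0878).

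Genes whose levels followed those of the leading members most closely were taken from probe sets brighter than the median, over all 16 arrays. For Cers4 they were Clcn6, an endosomal chloride transporter (Pearson r 0.91), Fads1, a fatty acid desaturase (0.90), Idh1, a cytosolic isocitrate dehydrogenase (0.87), Pfkl, a phosphofructokinase (0.85), and Trim32, a ubiquitin ligase (0.84). Without neuron-primed replicates 2 and 3, the arrays farthest from the Cers4 median, these were 0.88, 0.84, 0.82, 0.76 and 0.79. After each group's mean was taken out they were 0.51, 0.70, 0.22, 0.22 and -0.03, so for all but Fads1 and Clcn6 little of the likeness was left within groups. These arrays share the 4 groups, and the genes were the closest of all those searched, so the values describe and test nothing.

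For Asah1 the closest were Slc30a5 (0.88), Fbxo45 (0.86), Cop1 (0.86), Pigs (0.84) and Prkra (0.83). Without glia-primed replicate 4 and mesenchyme-primed replicate 3 they were 0.74, 0.72, 0.50, 0.60 and 0.62. For Ugcg they were Odf2 (0.81), Trip13 (0.80), Wars (0.79), Zfx (0.79) and Yipf4 (0.77). Without mesenchyme-primed replicate 3 and unprimed replicate 3 these became 0.76, 0.57, 0.73, 0.48 and 0.77.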

How the data were processed

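The authors computed the deposited intensities with RMA (no version named), per the submitters' processing notes. They run from 1.49 to 31600 on a linear scale, so their log2 was used without offset or rescaling, although the planned test assumed log2 values. Of 45101 probe sets, 34958 have a single gene symbol, 932 several and 9211 none listed, and symbols were updated to GRCm38.p6. All 45037 probe sets other than the array's controls were fitted over the 16 arrays with lmFit and eBayes of limma 3.58.1 (R 4.3.3), with 4 group means, two-sided tests and Benjamini-Hochberg adjustment over all of them. Intervals are at 95%. The number of arrays limits the precision. The scripts were tested on simulated data.

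The members and lists were chosen with earlier results of these data known. All members are named. Of the other pathway genes, those called were to be named, none was, and those given with values were picked after their values were seen. Arrays were also refitted with other scalings, filters, covariates, a replicate block and without each array. Scanner files were not used here.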

Additional observations from a re-analysis of the deposited data

Results flagged for a closer look

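Over the 40 groups of 4 arrays formed by the 10 leading probe sets, 2 had an array that stood far from the rest of its group by Dixon's criterion, and chance gives about 1 in 20. Mesenchyme-primed replicate 3 was the highest of its group for Cers4, at 8.54 against 7.24 to 7.43 on the others. Unprimed replicate 4 was the lowest of its group for Cers6, at 4.34 against 6.24 to 6.57 on the others.

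Cers4 is listed for its difference of -4.08 on the log2 scale between neuron- and mesenchyme-primed cells, with all 4 neuron-primed arrays below all mesenchyme-primed ones. The neuron-primed arrays are those whose low level was known when the genes were chosen, so its call in the fit over all probe sets (limma adjusted p = 0.0241) supports nothing. The call held in 9 of 16 fits that leave out an array and was lost with these groups fitted alone.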

How the results depend on the processing

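The count of called probe sets among the 22 outside Cers4 stayed at 0 in each comparison with unprimed cells under all alternatives run. Between neuron- and mesenchyme-primed cells the count of 1 was 0 when only these groups were fitted and 0 to 1 over the fits that leave out an array; the Cers4 difference there was -4.08 with only these groups (adjusted p = 0.0709), -4.50 to -3.77 over the fits without an array, -2.89 with log2 of the intensity plus 16, and its adjusted p ran from 0.00413 to 0.0869 over all alternatives. Against unprimed cells the neuron-primed Cers4 difference was -3.12 with log2 of the intensity plus 16, -5.34 with the Gapdh ratio as a covariate, and -4.74 to -4.01 without single arrays. Centring on housekeeping genes took the median difference of all probe sets from unprimed cells from 0.01 to 0.31 in glia-primed and from 0.01 to 0.34 in neuron-primed cells. With that centring the Cers4 difference between neuron- and mesenchyme-primed cells was -3.77. Over the leading probe sets, differences that were not called had the opposite sign in 85 of 1508 values under the alternatives.

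Replicate numbers are shared between groups, but 0 of 24 same-numbered pairs of arrays had deviations correlated over 0.1 (range -0.06 to 0.06), so the numbers were not taken as pairs. With the replicate block the Cers4 difference between neuron- and mesenchyme-primed cells was -4.08 (adjusted p = 0.0356), the members' counts were as before, and calls over all probe sets went from 129 to 63 in glia-primed and from 124 to 82 in neuron-primed against unprimed cells. Fitting only the groups compared gave 15 calls in place of 124 for neuron-primed cells. Signal over background was not measured, which limits what can be said of dim probe sets.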
